A study of Mus musculus with 9 samples.

Results

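The 32 genes described here encode the steps of glycolysis from glucose uptake to lactate export, the entry of pyruvate into mitochondria, the pentose phosphate pathway and the enzymes that supply cytosolic NADPH. They were chosen by symbol from the 21899 genes of the deposited table, with the phosphofructokinases left out, and all 32 were found in it. Poly(A) RNA was sequenced from 9 libraries of mouse brain tumor stem cells, with 3 libraries in each of 3 groups. The sgRNA1 KO group and the sgRNA2 KO group held cells in which Cas9 and the named guide RNA had targeted Gpd1. The product of Gpd1, a glycerol-3-phosphate dehydrogenase of the cytosol, draws dihydroxyacetone phosphate out of glycolysis. The control group held the same cell line with no knockout named on its labels. Per the labels, cells that received the guides went through puromycin and were grown up from colonies of 1 cell. Whether the controls went through the same steps is not stated, nor are the sex, age and strain of the source animals. No label says whether libraries of a group came from separate colonies or cultures. The titles of the KO libraries carry different numbers within each guide, and what these numbers stand for is not stated. The p-values therefore measure the spread between these libraries, and any effect of picking single colonies cannot be told apart from that of the knockout.

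Glycolysis splits glucose into pyruvate. In cells that grow fast much of the pyruvate is reduced to lactate by lactate dehydrogenase and exported by monocarboxylate transporters, while the rest enters mitochondria. Most steps have more than one isoform, and the isoforms differ between cell types: hexokinase 2 and lactate dehydrogenase A are typical of proliferating and tumor cells, hexokinase 1 is the main hexokinase of brain, and aldolase C is a brain isoform used as an astrocyte marker. The pentose phosphate pathway branches off at glucose 6-phosphate, where its oxidative arm makes NADPH and its non-oxidative arm makes ribose 5-phosphate for nucleotides.

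The normalized read counts of each library summed to between 39781901 and 42975283. These totals come after scaling and do not give sequencing depth. Gpd1 itself had 3299, 1347 and 21351 normalized read counts in the sgRNA1 KO libraries and 10812, 10812 and 6945 in those of sgRNA2 KO, against 25106, 26566 and 25836 in control. All 6 KO values lay below control (log2 fold change -1.99, SE 0.72, adjusted p = 0.0516 in limma, exact two-sided permutation p = 0.0476), but the library labelled sgRNA1 KO replicate 3 held 82.6% of the control mean. Reads over the whole gene do not show whether the guide's cut disrupted the protein. Across the table, the KO libraries nearest the controls were replicate 3 of sgRNA1 KO and replicate 1 of sgRNA2 KO, and results are also given without them. The median gene varied by an SD of 0.32 in sgRNA1 KO, 0.34 in sgRNA2 KO and 0.086 in control on the log2 scale (n = 3 each). All 13 listed neural and glioma stem cell markers, among them Vim and Fabp7, had values. Their sum was 265896 to 376165 in KO libraries and 371935 to 413564 in control. In limma 4 of the 13 rose and 3 fell (53.8% called, against 39.3% of all genes). The oligodendrocyte list summed to 94569 to 120042 in KO and 75437 to 86390 in control, nearly all of it Olig1 and Cnp. Of its 9 tested genes, 3 rose and 1 fell in limma (44.4% called, against 39.3% of all genes). The log2 fold change was above 0 for 8 of the 9. The neuron list summed to 48681 to 127277 in KO and 43276 to 44572 in control, nearly all of it Map2. Of its 8 tested genes, 2 rose in limma (25%, against 19.1% of all genes) and none fell. The log2 fold change was above 0 for 7 of the 8. The remaining lists were low: the 6 microglia and macrophage markers with values summed to 77 to 96 in KO and 89 to 117 in control, and the 6 endothelial markers to 186 to 325 in KO and 679 to 722 in control. The 6 pericyte and fibroblast markers summed to 78 to 396 in KO and 2238 to 2396 in control, mostly Acta2, and Alas2, of red blood cell precursors, was at 3 to 10 in KO and 5 to 9 in control.

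The 6 KO libraries were set against the 3 controls to ask how targeting of Gpd1 relates to expression of the genes around it in sugar metabolism. The log2 fold changes of the 32 genes ran from -2.00 to 1.39, and whether isoform genes differed from the other genes was not tested. In KO libraries 4 of the 32 genes rose, namely Hk1, Aldoc, Ldhb and Mpc2, and 9 fell, namely Slc2a3, Hk2, Adpgk, Gapdh, Slc16a1, G6pdx, H6pd, Rpia and Prps1. The test was limma on log2(normalized read count + 1) over the 15827 genes whose mean reached 10, with a Benjamini-Hochberg adjusted p under 0.05 as the threshold. Together the 13 called genes were 40.6% of the list, against 39.3% of all genes tested, so the share of the list was near that of the whole table. In the upward direction the share was 12.5%, against 19.1% of all genes, and in the downward direction 28.1%, against 20.2% of all genes. The median log2 fold change of the list was -0.29, against -0.01 over all genes tested. For 15 genes (46.9%) no KO value overlapped the control values, against 44.8% of all genes. All KO values were lower for 11 of these, against 23.8% of all genes, and higher for 4, against 21.1% of all genes. The 11 were the 9 fallen genes with Pgam1 and Ldha.

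**Figure D1:**
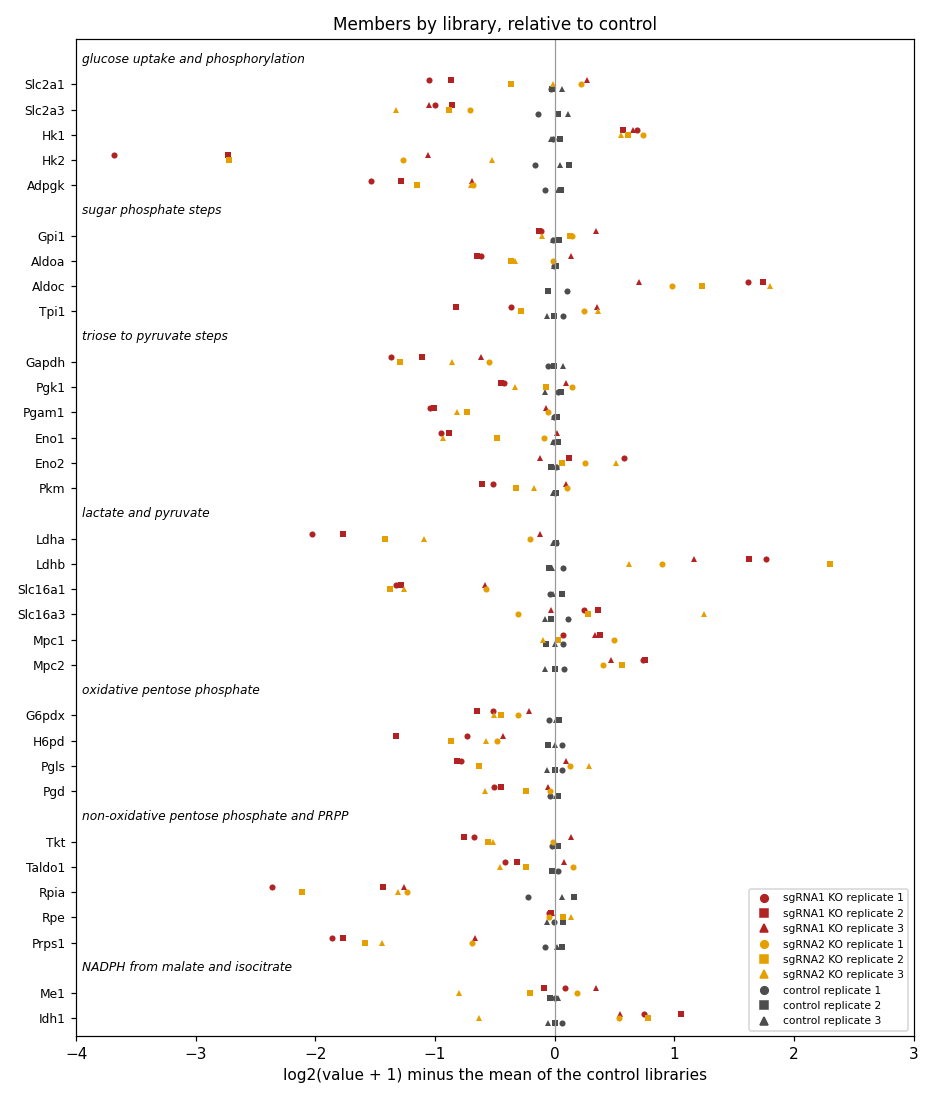
Log2(normalized read count + 1) of each of the 32 genes in each library, minus the mean of the 3 control libraries; genes are grouped by role, with groups in color and replicates by marker shape. The controls sit close to 0, Hk1 forms a tight cluster above 0 in all 6 KO libraries, and Hk2 spreads far to the left, down to 194 normalized read counts in sgRNA1 KO replicate 1.

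At the entry of glucose, the transporter and hexokinase genes diverged. Slc2a3 encodes GLUT3, a glucose transporter of high affinity. It had 903, 999 and 873 normalized read counts in sgRNA1 KO cells and 1108, 983 and 723 in sgRNA2 KO cells, against 1643, 1844 and 1961 in control. All 6 KO libraries lay below every control, at a log2 fold change of -0.97 (SE 0.14, adjusted p = 0.00169 in limma). Slc2a1, which encodes the widespread transporter GLUT1, had 1412, 1601 and 3532 in sgRNA1 KO cells and 3404, 2268 and 2888 in sgRNA2 KO cells, against 2855, 2877 and 3044 in control. Its KO libraries lay on both sides of the control range, and its log2 fold change of -0.30 (SE 0.29) did not pass (adjusted p = 0.430 in limma).

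Hk1 and Hk2 encode hexokinases, which phosphorylate glucose and so trap it in the cell. Hk1 had 6787, 6232 and 6634 normalized read counts in sgRNA1 KO cells and 7002, 6435 and 6168 in sgRNA2 KO cells, against 4169, 4339 and 4117 in control. All 6 KO libraries lay above every control, at 1.55-fold of the control mean, and the log2 fold change of 0.64 had the smallest SE of the 13 called genes (0.08, adjusted p = 0.00105 in limma). Hk2 had 194, 378 and 1206 in sgRNA1 KO cells and 1041, 379 and 1745 in sgRNA2 KO cells, against 2235, 2727 and 2592 in control. Every KO library lay below control, but they ranged over 194 to 1745, and the log2 fold change of -2.00 (SE 0.63) passed narrowly (adjusted p = 0.0304 in limma). The call was lost without sgRNA1 KO replicate 2 (log2 -1.85, adjusted p = 0.0533 in limma), without sgRNA2 KO replicate 2 (0.0597) and without control replicate 1, 2 or 3 (0.0738, 0.101 and 0.0935). Adpgk encodes an ADP-dependent glucokinase, which phosphorylates glucose with ADP in place of ATP. It had 1034, 1236 and 1862 in sgRNA1 KO cells and 1871, 1354 and 1848 in sgRNA2 KO cells, against 2842, 3119 and 3066 in control, a log2 fold change of -1.01 (SE 0.20, adjusted p = 0.00559 in limma). Again no KO library reached the lowest control.

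The upstream sequences of the hexokinase genes are shown because these isoforms moved in opposite directions. RefSeq (GRCm38.p6) gave a promoter for 31 of the 32 genes, and the 250 bases before the annotated start are printed 5′ to 3′ on the strand of the gene. Capitals mark matches on either strand to ACGTG, the core letters bound by hypoxia-inducible factors, to CACGTG, the E-box bound by MYC-type factors, and to TGACNNNGC, a core of antioxidant response elements. Every CACGTG also holds ACGTG on both strands. Hk2 lies on the minus strand with its window at chr6:82774455-82774704, and Hk1 on the minus strand at chr10:62379909-62380158, the listed promoter with the most annotated transcript starts within 100 bases. In GENCODE M21, on the same build, Hk2 spans chr6:82725025-82774454 and Hk1 chr10:62268855-62379908.
Hk2: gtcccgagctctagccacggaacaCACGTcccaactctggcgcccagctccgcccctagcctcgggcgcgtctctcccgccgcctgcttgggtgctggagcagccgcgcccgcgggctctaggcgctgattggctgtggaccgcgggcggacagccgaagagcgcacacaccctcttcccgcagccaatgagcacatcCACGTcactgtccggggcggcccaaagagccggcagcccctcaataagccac
Hk1: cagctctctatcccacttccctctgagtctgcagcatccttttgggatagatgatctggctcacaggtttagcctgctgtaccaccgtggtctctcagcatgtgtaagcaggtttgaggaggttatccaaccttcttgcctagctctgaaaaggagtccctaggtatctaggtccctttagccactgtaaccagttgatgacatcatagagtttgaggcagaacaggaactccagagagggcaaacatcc
The window of Hk2 held 2 matches to ACGTG, and the printed window of Hk1 held none of the 3 motifs. Hk1 has 2 listed promoters, and the printed one has 4 of 18 annotated transcript starts within 100 bases. For Hk2 it is 1 of 3. These matches are letters in a fixed window and do not show a bound site.

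Between glucose 6-phosphate and the trioses, both isomerase genes had KO values on either side of control. Gpi1, the phosphoglucose isomerase gene, had 9549, 9454 and 13153 normalized read counts in sgRNA1 KO cells and 11442, 11281 and 9610 in sgRNA2 KO cells, against 10221, 10588 and 10241 in control (log2 0.04, SE 0.12). Tpi1, the triose phosphate isomerase gene, had 8785, 6409 and 14446 in sgRNA1 KO cells and 13414, 9324 and 14576 in sgRNA2 KO cells, against 11882, 11305 and 10850 in control (log2 -0.09, SE 0.25). Neither passed in limma (adjusted p = 0.793 for Gpi1 and 0.803 for Tpi1). Triose phosphate isomerase acts directly on dihydroxyacetone phosphate, the substrate of the enzyme that Gpd1 encodes.

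Aldolase splits fructose 1,6-bisphosphate, and its isoform genes differed. Aldoc had 128303, 140165 and 68424 normalized read counts in sgRNA1 KO cells and 82472, 98352 and 145542 in sgRNA2 KO cells, against 45081, 40410 and 40432 in control. All 6 KO libraries lay above every control, and the gene stood at 2.63-fold of control (log2 fold change 1.34, SE 0.24, adjusted p = 0.00341 in limma). Aldoa, the aldolase of muscle and of most growing cells, had 14423, 14124 and 24305 in sgRNA1 KO cells and 21966, 17223 and 17542 in sgRNA2 KO cells, against 22044, 22263 and 22113 in control. It was below control in 5 of 6 KO libraries and above it in sgRNA1 KO replicate 3, and its log2 fold change of -0.31 (SE 0.18) did not pass (adjusted p = 0.183 in limma). Aldoc alone made up 22.0% to 45.3% of the summed counts of the 32 genes in KO libraries and 15.3% to 16.9% in control. Without it, the other 31 genes summed to 171348 to 242312 in KO and 219629 to 224183 in control.

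Aldoc is used as a marker of astrocytes, and part of the astrocyte marker list was higher in the same libraries. That list, which does not hold Aldoc, summed to 130679 to 451431 over 12 genes in KO libraries and 84470 to 94153 in control. Of its 11 tested genes, 5 rose in limma, Apoe and Glul among them (45.5%, against 19.1% of all genes), and 6 did not pass, 3 of them with a log2 fold change below 0. With sgRNA1 6 rose and none fell, and with sgRNA2 5 rose and 1 fell, namely Clu (log2 -1.94), which is named here after its values were seen. In sgRNA1 KO replicate 3 and sgRNA2 KO replicate 1 the list stood at a mean log2 ratio of 0.55 and 0.59, where Aldoc was lowest among the KO libraries. In bulk RNA a change in the number of cells of a type and a change in RNA per cell cannot be told apart. The part of the marker list in the result for Aldoc was not tested.

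From glyceraldehyde 3-phosphate to pyruvate, Gapdh was the only one of the 6 genes in this segment that passed. Gapdh had 260, 311 and 437 normalized read counts in sgRNA1 KO cells and 459, 274 and 370 in sgRNA2 KO cells, against 645, 668 and 705 in control (log2 fold change -0.97, SE 0.20, adjusted p = 0.00673 in limma). All 6 KO libraries lay below control. Reads of this gene can be lost or split in counting, since 87.96% of its transcript is shared, at 95% identity or more over at least 200 bases, with 77 other annotated genes, 75 of them pseudogenes. Of these copies, 63 have rows in the table, and their summed mean was 3267 in KO libraries and 4739 in control, several times the count of Gapdh itself. The level of Gapdh is therefore uncertain, while the counts of the gene and of its copies were both lower in KO.

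The other genes of this segment did not pass, and several had their KO libraries split. Pgam1, a phosphoglycerate mutase gene, had 302, 310 and 594 in sgRNA1 KO cells and 602, 376 and 353 in sgRNA2 KO cells, against 620, 633 and 620 in control (log2 -0.62, SE 0.25, adjusted p = 0.0713 in limma). Eno1, the enolase gene of most tissues, had 2646, 2775 and 5185 in sgRNA1 KO cells and 4820, 3668 and 2676 in sgRNA2 KO cells, against 5092, 5214 and 5075 in control (log2 -0.56, SE 0.23, adjusted p = 0.0823 in limma). For Pgam1 and Eno1 alike, replicate 3 of sgRNA1 KO and replicate 1 of sgRNA2 KO sat at or near the control level and the other 4 KO libraries lay lower. Leaving out sgRNA1 KO replicate 3 gave adjusted p = 0.0305 for Pgam1 and 0.0271 for Eno1 in limma, and leaving out sgRNA2 KO replicate 1 gave 0.0290 and 0.0430. Both libraries were picked for their nearness to the controls, so these fits are no test of the knockout. Eno1 shares 85.6% of its transcript with 3 annotated copies, among them the protein-coding Eno1b. Their summed mean was 1725 in KO and 2593 in control.

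Pkm, the pyruvate kinase gene of all tissues but liver and red blood cells, had 35139, 33069 and 53861 in sgRNA1 KO cells and 54093, 40291 and 44555 in sgRNA2 KO cells, against 50408, 50821 and 49854 in control (log2 -0.24, SE 0.17, adjusted p = 0.283 in limma). Pgk1, the phosphoglycerate kinase gene, ranged over 939 to 1421 in KO and 1213 to 1333 in control (log2 -0.17, SE 0.16). Eno2, the neuronal enolase gene, ranged over 333 to 544 in KO and 356 to 368 in control (log2 0.23, SE 0.18). Neither passed in limma (adjusted p = 0.411 for Pgk1 and 0.308 for Eno2). Pkm, Pgk1 and Pgam1 also have near-identical copies elsewhere in the genome, which cover 65.5%, 68.8% and 43.1% of their transcripts.

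At the lactate step the isoforms diverged as well. Ldha encodes the lactate dehydrogenase subunit that favors lactate formation, and Ldhb the subunit common in tissues that oxidize lactate. Ldha had 5225, 6252 and 19557 normalized read counts in sgRNA1 KO cells and 18428, 7944 and 9974 in sgRNA2 KO cells, against 21383, 21429 and 21026 in control. All 6 KO libraries lay below the narrow control range, but 2 of them by little, and its change of -1.11 on the log2 scale (SE 0.41) missed the threshold (adjusted p = 0.0539 in limma). Without sgRNA1 KO replicate 3 it was -1.30 (adjusted p = 0.0181 in limma), without sgRNA2 KO replicate 1 -1.29 (0.0233), and without both -1.58 (0.000982). These libraries were picked for their nearness to the controls, so the fits describe the libraries kept and are no test of Ldha. Without both, 48.4% of all genes passed and 25.0% fell. With all 9 libraries and variance weights for each group, Ldha passed (adjusted p = 0.00410 in limma), but the share of all genes that fell under these weights is not given here. Ldhb had 10527, 9540 and 6923 in sgRNA1 KO cells and 5743, 15193 and 4740 in sgRNA2 KO cells, against 3248, 2991 and 3037 in control. It was higher in 6 of 6 KO libraries and stood at 2.84-fold of control (log2 fold change 1.39, SE 0.32, adjusted p = 0.00921 in limma). Copies cover 55.0% of the Ldha transcript and 76.8% of that of Ldhb, and the copies with rows in the table summed to 2.17 in KO and 4 in control for Ldha and to 487 in KO and 181 in control for Ldhb.

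Among the carriers of pyruvate and lactate, Slc16a1 and Mpc2 changed. Slc16a1 encodes MCT1, a proton-coupled transporter of lactate and pyruvate. It had 2334, 2399 and 3910 in sgRNA1 KO cells and 3924, 2245 and 2433 in sgRNA2 KO cells, against 5669, 6082 and 5777 in control (log2 fold change -1.07, SE 0.21, adjusted p = 0.00484 in limma). Mpc2 encodes a subunit of the mitochondrial pyruvate carrier. It had 2473, 2490 and 2050 in sgRNA1 KO cells and 1960, 2190 and 2182 in sgRNA2 KO cells, against 1560, 1481 and 1401 in control (log2 fold change 0.58, SE 0.11, adjusted p = 0.00439 in limma). Both genes separated the KO libraries from control without overlap. Mpc1, the partner subunit, ranged over 304 to 460 in KO and 310 to 343 in control (log2 0.20, SE 0.16, adjusted p = 0.346 in limma). Near-identical copies cover 27.4% of the Mpc1 transcript, and the copy with values averaged 219 in KO and 217 in control. The level of Mpc1 is therefore uncertain. Slc16a3, which encodes the lactate exporter MCT4, was the least abundant of the 32 genes per kilobase, with 47 to 140 in KO and 55 to 63 in control (log2 0.30, SE 0.31, adjusted p = 0.458 in limma).

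**Figure D2:**
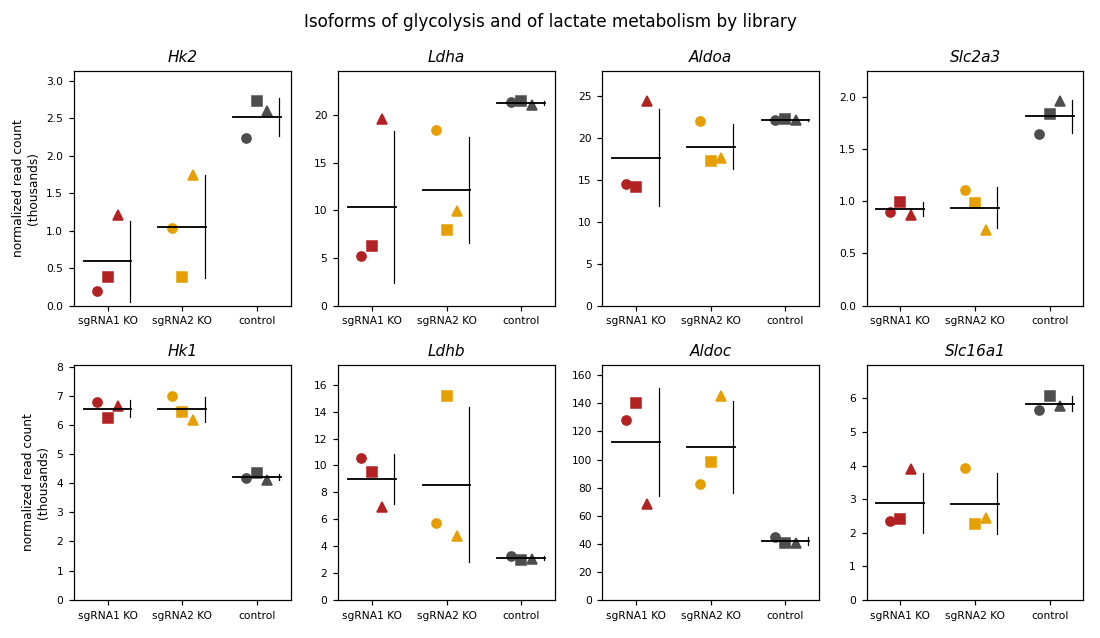
Normalized read counts (axes in units of 1000) of 8 genes in sgRNA1 KO, sgRNA2 KO and control; circles, squares and triangles are replicates 1, 2 and 3, horizontal lines mark means and vertical lines the SD (n = 3), and every axis starts at 0. Hk1, Ldhb and Aldoc lie above control in all 6 KO libraries, Hk2, Slc2a3 and Slc16a1 lie below, and Ldha splits between 2 libraries near control and 4 at 9974 or less.

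The windows upstream of Ldha, Ldhb and Slc16a1 are shown because Slc16a1 fell, Ldhb rose and Ldha lay below control in every KO library. Ldha lies on the plus strand at chr7:46845554-46845803, Ldhb on the minus strand at chr6:142507958-142508207 and Slc16a1 on the plus strand at chr3:104638414-104638663. The annotated genes span chr7:46841475-46855627 for Ldha, whose window here lies before a start inside that span, chr6:142490249-142507957 for Ldhb and chr3:104638668-104658462 for Slc16a1.
Ldha: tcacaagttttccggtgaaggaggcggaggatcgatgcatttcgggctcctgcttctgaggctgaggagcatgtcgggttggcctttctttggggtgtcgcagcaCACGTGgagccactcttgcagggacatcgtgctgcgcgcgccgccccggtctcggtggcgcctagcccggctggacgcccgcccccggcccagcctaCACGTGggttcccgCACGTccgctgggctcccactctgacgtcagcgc
Ldhb: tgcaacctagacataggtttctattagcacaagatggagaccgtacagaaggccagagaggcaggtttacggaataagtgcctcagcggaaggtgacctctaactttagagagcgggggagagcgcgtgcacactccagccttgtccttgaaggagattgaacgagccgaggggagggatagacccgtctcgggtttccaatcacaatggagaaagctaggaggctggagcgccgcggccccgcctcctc
Slc16a1: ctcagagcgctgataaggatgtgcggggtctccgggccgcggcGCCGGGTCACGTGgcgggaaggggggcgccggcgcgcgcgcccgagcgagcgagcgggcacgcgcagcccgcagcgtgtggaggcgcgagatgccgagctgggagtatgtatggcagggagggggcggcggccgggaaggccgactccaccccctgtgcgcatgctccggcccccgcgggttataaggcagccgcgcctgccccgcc
The window of Ldha held 2 E-boxes and a further ACGTG match, and that of Slc16a1 held 1 E-box that overlaps its match to TGACNNNGC. The printed window of Ldhb held none of the 3 motifs. Over the 31 genes with a promoter, 35.5% held ACGTG in at least 1 listed window, against 18.5% of all genes in the table of promoters. For CACGTG the shares were 6.45% of the 31 genes and 6.86% of all genes, and for TGACNNNGC they were 16.1% and 11.5%. The printed windows were picked by the change of their genes and do not stand for the list. In the window chosen for each gene, the fallen genes Hk2, Adpgk and Slc16a1 held ACGTG. The fallen genes Gapdh, G6pdx, H6pd, Rpia and Prps1 did not, nor did the risen Hk1, Aldoc, Ldhb and Mpc2. Slc2a1, Aldoa, Pgk1, Pgam1, Ldha, Slc16a3 and Me1, which did not pass, also held it. These matches and shares describe the sequence only, and no change in expression was tied to them.

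Ratios within a library do not depend on its scaling factor, so 8 pairs of related genes were also compared as log2 ratios. The Ldhb to Ldha ratio was 1.01, 0.61 and -1.50 in sgRNA1 KO cells and -1.68, 0.94 and -1.07 in sgRNA2 KO cells, against -2.72, -2.84 and -2.79 in control. Ldhb thus exceeded Ldha in read counts in 3 KO libraries and in no control. The mean ratio was higher in KO by 2.50, a 5.66-fold change, and all 6 KO libraries lay above control. The Hk2 to Hk1 ratio averaged -3.38 ± 1.24 in KO (SD, n = 6) and -0.75 ± 0.13 in control (SD, n = 3), lower in 6 of 6 KO libraries. The Aldoc to Aldoa ratio averaged 2.57 ± 0.74 in KO (SD, n = 6) and 0.92 ± 0.10 in control (SD, n = 3), higher in 6 of 6.

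These 3 ratios each gave p = 0.0238 in the two-sided exact permutation test over all 84 assignments of 6 libraries to KO and 3 to control, where 0.0119 is the smallest p possible. Adjusted over the 8 pairs, each stood at 0.0635 and none of the 8 passed. The pairs were chosen with earlier results of these data known, so these p-values are not those of pairs fixed beforehand. The Slc16a3 to Slc16a1 ratio was higher in KO by 1.37 and in 6 of 6 libraries (exact permutation p = 0.0476, adjusted 0.0952). The other 4 ratios, Slc2a3 to Slc2a1, Eno2 to Eno1, Mpc2 to Mpc1 and H6pd to G6pdx, differed by -0.67, 0.79, 0.38 and -0.30 and had KO libraries inside or on both sides of the control range.

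**Figure D3:**
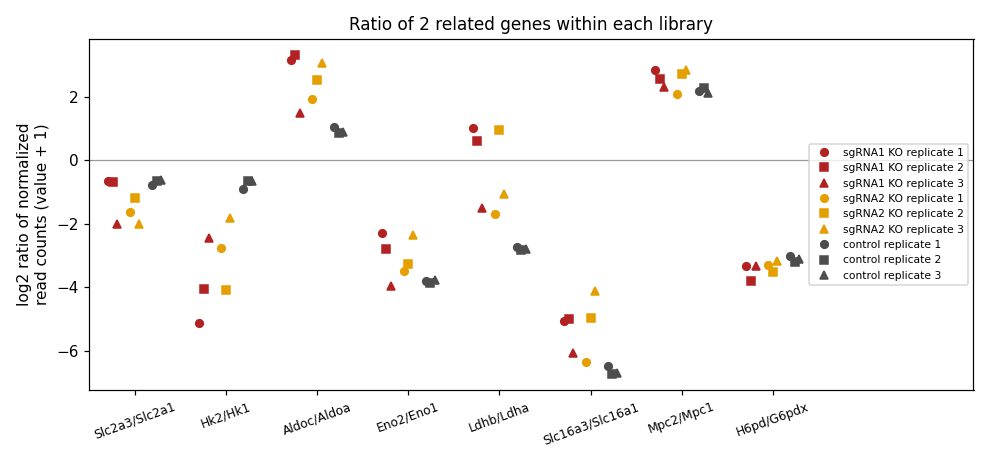
Log2 ratio of the normalized read counts (value + 1) of 2 related genes within each library, for 8 pairs, with groups in color and replicates by marker shape. For Ldhb to Ldha the controls lie between -2.84 and -2.72 and the KO libraries between -1.68 and 1.01.

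In the oxidative arm of the pentose phosphate pathway both genes of the first step fell by modest amounts. G6pdx encodes glucose-6-phosphate dehydrogenase, which commits glucose 6-phosphate to the pathway and makes NADPH. It had 3500, 3189 and 4299 normalized read counts in sgRNA1 KO cells and 4052, 3664 and 3526 in sgRNA2 KO cells, against 4838, 5133 and 5035 in control (log2 fold change -0.44, SE 0.11, adjusted p = 0.0126 in limma). H6pd encodes the form of this enzyme in the endoplasmic reticulum. It had 348, 230 and 428 in sgRNA1 KO cells and 414, 316 and 388 in sgRNA2 KO cells, against 604, 555 and 578 in control (log2 fold change -0.74, SE 0.20, adjusted p = 0.0174 in limma). Both lay below control in 6 of 6 KO libraries. The call of G6pdx was lost without control replicate 2 (adjusted p = 0.0637 in limma) or 3 (0.0573), and that of H6pd without control replicate 1 (0.0663), 2 (0.0621) or 3 (0.0667).

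The 2 later enzymes of this arm did not pass. Pgls, the phosphogluconolactonase gene, had 2124, 2070 and 3901 in sgRNA1 KO cells and 3997, 2359 and 4454 in sgRNA2 KO cells, against 3797, 3665 and 3492 in control (log2 -0.29, SE 0.27, adjusted p = 0.415 in limma). Its KO libraries were split, 3 below and 3 above the control range. Pgd, which makes NADPH from phosphogluconate, ranged over 4356 to 6352 in KO and 6336 to 6651 in control (log2 -0.31, SE 0.14, adjusted p = 0.0988 in limma). Exons of G6pdx overlap those of Ikbkg on the opposite strand over 278 bases, and exons of Pgls overlap those of Fam129c on the same strand over 404 bases. The strand setting of the counting is not given in the sources used here.

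Of the genes that lead from pentose phosphates to nucleotides, the 2 on the ribose branch fell. Rpia encodes ribose-5-phosphate isomerase, which makes ribose 5-phosphate. It had 180, 344 and 388 normalized read counts in sgRNA1 KO cells and 394, 214 and 375 in sgRNA2 KO cells, against 794, 1040 and 972 in control, or 33.8% of control (log2 fold change -1.62, SE 0.28, adjusted p = 0.00292 in limma). Prps1 encodes phosphoribosyl pyrophosphate synthetase 1, which activates ribose 5-phosphate for purine and pyrimidine synthesis. It had 1123, 1200 and 2582 in sgRNA1 KO cells and 2528, 1364 and 1505 in sgRNA2 KO cells, against 3878, 4266 and 4141 in control, or 41.9% of control (log2 fold change -1.34, SE 0.28, adjusted p = 0.00630 in limma). Rpia spans chr6:70765720-70792232 and Prps1 chrX:140456613-140476140. For both genes every KO library lay below every control, and both stayed past the threshold in all 9 fits that left out 1 library.

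The reversible sugar exchanges of the pathway did not pass. Rpe, the epimerase gene, had the fold change closest to 0 of the 32 genes (log2 0.01, SE 0.09). It had 4182 to 4754 in KO and 4121 to 4544 in control. Exons of Rpe overlap those of Kansl1l on the opposite strand over 558 bases. Kansl1l averaged 2618 in KO and 1898 in control, and whether its reads entered the count of Rpe was not tested. Tkt, the transketolase gene, had 11460, 10803 and 20024 in sgRNA1 KO cells and 18049, 12413 and 12747 in sgRNA2 KO cells, against 17983, 18591 and 18242 in control (log2 -0.40, SE 0.20, adjusted p = 0.132 in limma). Taldo1, the transaldolase gene, ranged over 4330 to 6609 in KO and 5844 to 6084 in control (log2 -0.20, SE 0.15, adjusted p = 0.302 in limma). Tkt passed without sgRNA1 KO replicate 3, with a log2 fold change of -0.51 (adjusted p = 0.0334 in limma). That library was picked for its nearness to the controls, so this fit is no test of the knockout.

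Me1 and Idh1 encode the cytosolic malic enzyme and isocitrate dehydrogenase, which make NADPH outside the pathway. Me1 had 7257, 6429 and 8677 normalized read counts in sgRNA1 KO cells and 7770, 5925 and 3935 in sgRNA2 KO cells, against 6866, 6669 and 6978 in control (log2 -0.08, SE 0.22, adjusted p = 0.787 in limma). Idh1 had 28203, 34955 and 24553 in sgRNA1 KO cells and 24383, 28812 and 10821 in sgRNA2 KO cells, against 17504, 16788 and 16125 in control. It was above control in 5 of 6 KO libraries and below it in sgRNA2 KO replicate 3. Its log2 fold change of 0.51 (SE 0.31) did not pass (adjusted p = 0.209 in limma), and without sgRNA2 KO replicate 3 it was 0.73 (adjusted p = 0.00321 in limma). That library holds the only KO value below control, so the fit without it describes the libraries kept and is no test of Idh1.

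**Figure D4:**
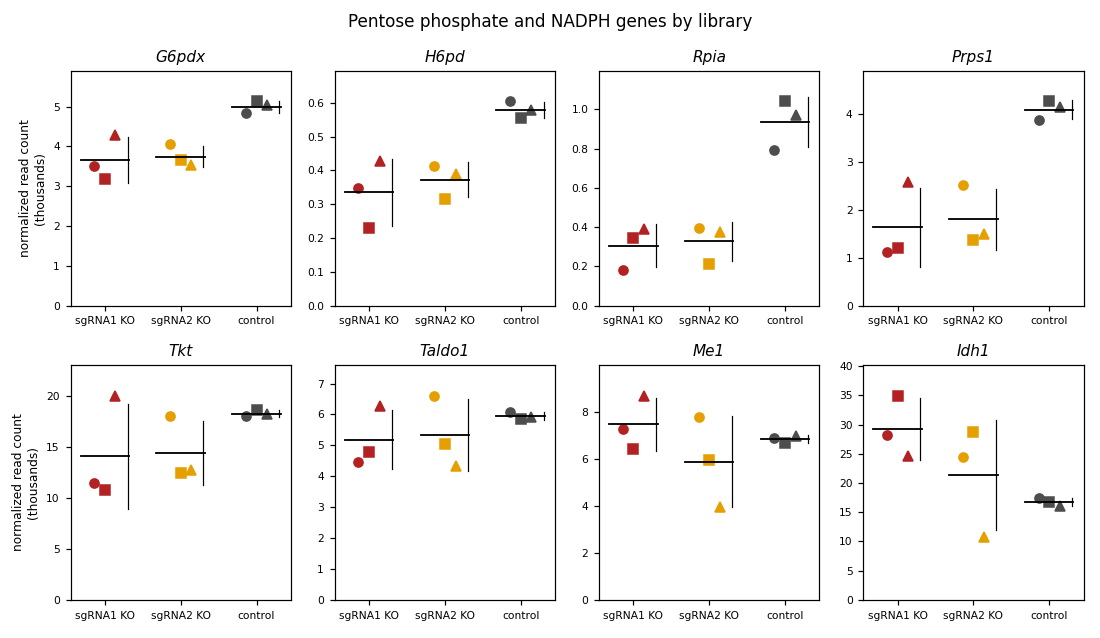
Normalized read counts (axes in units of 1000) of 8 pentose phosphate and NADPH genes in sgRNA1 KO, sgRNA2 KO and control; circles, squares and triangles are replicates 1, 2 and 3, horizontal lines mark means and vertical lines the SD (n = 3), and every axis starts at 0. Rpia and Prps1 lie below control in all 6 KO libraries, and Idh1 lies above control in all but sgRNA2 KO replicate 3, at 10821.

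Each guide was compared with the same 3 controls, in 1 limma fit with 3 groups. With sgRNA1, 4 of the 32 genes rose and 9 fell (40.6% called, against 36.0% of all genes tested). With sgRNA2, 4 rose and 6 fell (31.25% called, against 22.1% of all genes). The risen genes with either guide were Hk1, Aldoc, Ldhb and Mpc2. Slc2a3, Adpgk, Gapdh, Slc16a1, Rpia and Prps1 passed as lower with each guide, and Hk2, G6pdx and H6pd passed with sgRNA1 and missed with sgRNA2 (adjusted p = 0.136, 0.0522 and 0.0781 in limma). The log2 fold change was 0.64 with sgRNA1 and 0.63 with sgRNA2 for Hk1, -0.97 with each guide for Slc2a3, -1.06 with sgRNA1 and -1.07 with sgRNA2 for Slc16a1, and 1.35 with sgRNA1 and 1.33 with sgRNA2 for Aldoc. The counts of fallen genes ranged over 3 to 19 with sgRNA1 and 0 to 10 with sgRNA2 when each library was left out in turn. With sgRNA2 none of the 32 genes fell without control replicate 2 or 3, where 612 and 667 genes passed over the whole table. Of the called genes, Slc2a3, Hk1, Adpgk, Mpc2 and Rpia stayed past the threshold in all 9 such fits with sgRNA1, and Hk1 alone with sgRNA2. With sgRNA1 the count of fallen genes was 3 without control replicate 2 or 3 or without sgRNA1 KO replicate 1 or 2, and 19 without sgRNA1 KO replicate 3.

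The guides were also compared with each other. None of the 32 genes passed between sgRNA1 KO and sgRNA2 KO in limma (smallest adjusted p = 0.778), and 0 of the 32 had an unadjusted p under 0.05. Among all 15827 genes tested 0 passed (0%), while 474 had an unadjusted p under 0.05. The intervals allow sizeable differences for some genes. For Hk2 the difference of sgRNA1 minus sgRNA2 was -0.98 (95% interval -2.53 to 0.56), for Idh1 0.56 (-0.17 to 1.28) and for Ldha -0.40 (-1.47 to 0.68). For Hk1 it was 0.00 (-0.23 to 0.24) and for Rpe -0.09 (-0.32 to 0.14).

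Libraries that received the same guide differed widely. The median absolute log2 ratio of the 32 genes to the control mean was 0.74, 0.82 and 0.34 in sgRNA1 KO, while in sgRNA2 KO it was 0.28, 0.56 and 0.57. The same median over all genes tested was 0.69, 0.65 and 0.36 in sgRNA1 KO cells and 0.35, 0.60 and 0.54 in sgRNA2 KO cells, so the size of each library's shift was similar in the 32 genes and in the table. Without sgRNA1 KO replicate 3 and sgRNA2 KO replicate 1, 4 of the 32 genes rose and 17 fell in KO, and the fallen share of 53.1% stood against 25.0% of all genes. The 8 genes added were Aldoa, Pgam1, Eno1, Pkm, Ldha, Pgd, Tkt and Taldo1, and all 13 earlier calls were kept. These libraries were picked for their nearness to the controls, so this count describes the remaining 4 and is no test of the knockout.

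Proliferation markers moved with the same libraries. The summed level of 17 proliferation genes, Top2a and Mki67 among them, was 33002 to 158906 in KO and 234780 to 250125 in control, and 12 of the 17 fell in limma (70.6%, against 20.2% of all genes). With sgRNA1 15 of the 17 fell (against 18.9% of all genes) and with sgRNA2 2 of the 17 (against 10.7% of all genes), and none passed between the guides. Their mean log2 ratio to control was -2.79, -2.97 and -0.63 in sgRNA1 KO cells and -0.69, -2.06 and -1.29 in sgRNA2 KO cells. Ldha stood at -2.03, -1.77 and -0.12 in sgRNA1 KO cells and at -0.21, -1.42 and -1.09 in sgRNA2 KO cells. The part of proliferation in the results for Ldha, Hk2, Rpia and Prps1 was not tested.

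**Figure D5:**
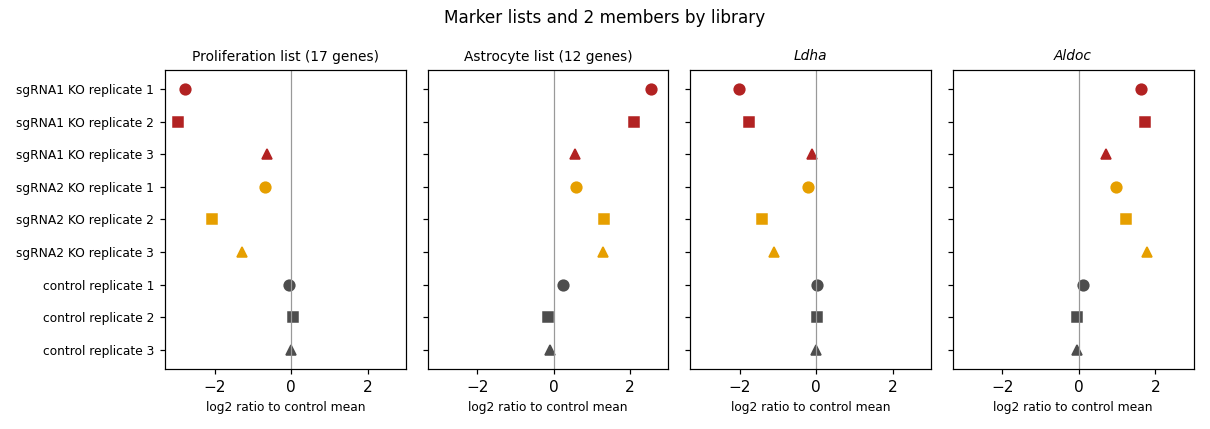
Mean log2 ratio to the control mean of 17 proliferation and 12 astrocyte marker genes, and the log2 ratio of Ldha and Aldoc, in each library. sgRNA1 KO replicate 3 and sgRNA2 KO replicate 1 are the KO libraries nearest 0 in all 4 panels, at -0.63 and -0.69 for proliferation and at -0.12 and -0.21 for Ldha.

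Levels of different genes were compared as normalized read counts per kilobase of annotated exon. In KO libraries the highest levels were those of Aldoc (33878 ± 9815), Idh1 (9126 ± 2910) and Pkm (8699 ± 1810), followed by Aldoa (6274 ± 1405) and Ldhb (5591 ± 2446) (SD, n = 6). In control the order was Aldoc (12864 ± 825), Pkm (10070 ± 97.0), Aldoa (7606 ± 38.5), Ldha (6429 ± 66.6) and Idh1 (6065 ± 249) (SD, n = 3). By rank among the 32 genes, Ldha was at 7 in KO and 4 in control, and Ldhb at 5 in KO and 10 in control. In KO, Idh1 and Pkm differed by less than their spread, as did Aldoa and Ldhb. Hk1 had 767 ± 38.1 per kilobase in KO and 493 ± 13.6 in control, and Hk2 had 138 ± 101 in KO and 422 ± 42.6 in control. Genes with near-identical copies, 11 of the 32 in all, may be understated on this scale.

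Of 77 further genes of these pathways, 73 had values and 66 were tested. In KO against control 9 rose and 7 fell in limma, 24.2% of those tested against 39.3% of all genes, with a median log2 fold change of 0.09. Pdk2, a kinase that inhibits pyruvate dehydrogenase, had 2002 ± 767 normalized read counts in KO (SD, n = 6) and 392 ± 56.8 in control (SD, n = 3), a log2 fold change of 2.27 (SE 0.29, adjusted p = 0.00101 in limma). Pyruvate dehydrogenase and its regulators gave no call among the other 11 tested genes. The muscle isoforms Eno3 (log2 1.75) and Pgam2 (1.34) rose, as did the glycogen phosphorylase genes Pygb (1.43) and Pygm (1.37). Slc2a8, a glucose transporter gene, rose by 1.43, Pfkfb2, which makes fructose 2,6-bisphosphate, by 0.74, and Shpk, the sedoheptulose kinase gene, by 0.97. Eno3, at 286 ± 62.9 in KO (SD, n = 6) and 83.3 ± 11.5 in control (SD, n = 3), was higher in all 6 KO libraries.

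The 7 fallen genes were Me2, the mitochondrial malic enzyme gene (log2 -1.20), Gsr, which spends NADPH to reduce glutathione (-1.19), and Tigar, a fructose bisphosphatase gene (-1.16). The others were Mthfd1, of folate metabolism (-1.04), Pgm2l1 (-0.82), Minpp1 (-0.67) and Pgm1 (-0.38). Their adjusted p in limma ran from 0.00222 for Me2 to 0.0489 for Pgm1. Me2 had 1976 ± 492 in KO (SD, n = 6) and 4438 ± 132 in control (SD, n = 3). Tigar, Pgam2 and Pgm1 were the least stable: without control replicate 2 their adjusted p was 0.105, 0.144 and 0.154 in limma. None of the 6 tested genes of monocarboxylate transport beyond the 32, among them Bsg, a chaperone of MCT1, passed.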

How the data were processed

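The deposited table gives 1 score per gene and library, a normalized read count that the authors rounded to whole numbers. The submitters' processing notes name STAR (version 2.4.1d), featureCounts, DESeq2 and the mm10 build. That read counts were multiplied by 1 factor per library was inferred from the values. Raw counts were not used here, so counting intervals are not given. Replicates are labelled as separate samples, and no within-group pair agreed within sampling noise.

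Values were transformed as log2(value + 1), which understates changes of genes with low counts, and genes with a mean of at least 10 were tested in limma 3.58.1 (R 4.3.3) by two-sided tests with a trended prior variance and p-values adjusted by Benjamini-Hochberg over all genes tested. The pipeline was tested on simulated data. Replicate numbers do not pair the libraries. GENCODE M21 (same build) matched 99.7% of gene IDs and gave positions and exon lengths; copies were found with blastn 2.17.0. Promoter sequences are RefSeq's. Python 3.11.15 drew the figures.

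The 32 genes, the 8 pairs, the further pathway genes and the marker lists were chosen with earlier results of these data known. All 32 genes are named; of the further pathway genes, those that passed are named, at most 8 each way by size; of each marker list, up to 2 genes with the highest mean. Alternatives were a replicate block, each library left out in turn, 2 libraries left out together, weights for the variance of each group, fits of only the 6 libraries in question, rescaling by quantiles or by median ratios, no filter or a mean of at least 50, and pseudocounts of 0.5 or 5.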

Additional observations from a re-analysis of the deposited data

Results flagged for a closer look

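Idh1 in sgRNA2 KO replicate 3 stood at 10821 normalized read counts, below all other KO libraries, which ranged over 24383 to 34955, and its gap to them was large for the spread of the 6 on the log2 scale. Of the 32 genes and Gpd1, this was the only such value. Chance gives about 1 in 20 groups such a value, and 8.05% of all genes tested had such a value. No gene among the 32 had all libraries of one guide above and all of the other below control.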

How the results depend on the processing

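The 13 calls in KO against control were kept under pseudocounts of 0.5 and 5, no filter, a mean of at least 50, both rescalings, variance weights per group and the omission of both libraries nearest the controls. With a replicate block the counts were also 4 risen and 9 fallen genes, 5786 genes passed over the whole table, 0 pairs passed, and Gpd1 stood at -1.99 (adjusted p = 0.0613 in limma); only 2 of 9 same-numbered pairs of libraries deviated together (correlation over 0.1), and among the genes named the block ended the calls of Pgam2 (adjusted p = 0.0589 in limma) and Pgm1 (0.0559). Variance weights gave 15 fallen genes, with Aldoa, Pgam1, Eno1, Ldha, Pgd and Tkt added. Idh1 was added to the risen genes, and Gpd1 stood at -2.00 (adjusted p = 0.00375 in limma). The share of all genes that fell under these weights is not given here. The added calls therefore cannot be set apart from a gain over the whole table. The omission of sgRNA1 KO replicate 3 and sgRNA2 KO replicate 1, picked for their nearness to the controls, gave 17 fallen genes in KO (53.1%, against 25.0% of all genes). It gave 20 with sgRNA1 (62.5%, against 27.0% of all genes) and 15 with sgRNA2 (46.9%, against 20.8% of all genes). In both directions 8191 genes passed over the whole table with sgRNA1, 6268 with sgRNA2 and 30 between guides. Gpd1 stood at -2.59 (adjusted p = 0.0116 in limma).

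With each library left out in turn, KO against control gave 4 to 5 risen and 6 to 13 fallen genes of the 32 and 2759 to 7609 genes over the whole table. It gave 2 to 5 risen and 3 to 19 fallen with sgRNA1 (1252 to 7915 over the whole table), 1 to 5 risen and 0 to 10 fallen with sgRNA2 (612 to 5496), and 0 to 173 genes between guides. Gpd1 ranged over -2.33 to -1.53. The lowest counts over the whole table in the 3 comparisons with control came without control replicate 2. None of these alternatives reversed a call. No raw counts were used, so limits set by depth were not computed; Slc16a3 had the lowest normalized read counts of the 32 genes.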
